A study of Glycine max with 60 samples.

Results

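ATP-binding cassette (ABC) transporters are membrane proteins that use ATP to move compounds across membranes. In plants they carry hormones such as abscisic acid and auxin, load conjugated compounds into the vacuole, export the lipids of cutin, wax and suberin, and release defence compounds. The soybean low phytic acid mutations include 2 ABC transporter genes, MRP-L and MRP-N, whose loss lowers the phytic acid of the seed. The genes described here are the other ABC transporter genes of the developing soybean seed. There were 94 of them among 56044 genes in the count table. They were chosen by words for ABC transporters in the TAIR or UniRef annotation that the authors printed only for genes in their tables of differential expression. Those tables held 13166 genes, of which 12000 had a match in that annotation, and MRP-N was the only gene left out that the words also found. All 94 genes were therefore selected on a readout of the same libraries, as called by the authors in at least 1 comparison of a mutant with its non-mutant line or of adjacent stages. For that reason their calls in those comparisons are given as a description. ABC transporter genes outside the tables carried no annotation there and were not analysed here.

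The RNA came from developing seeds taken whole, in 60 libraries, 3 for each of 4 lines at 5 stages. The line 3mlpa carries mips1, mrp-l and mrp-n, which are mutations of MIPS1, an enzyme of myo-inositol synthesis, and of both transporter genes. Its non-mutant 3MWT is a sister recombinant inbred line of the same cross. The line 1mlpa carries mips1 alone, and 1MWT is its non-mutant near-isogenic sister. Each genotype is thus a single line, and all plants grew in chambers. Stages were set by seed length, with S1 at 2 to 4 mm, S2 at 4 to 6 mm, S3 at 6 to 8 mm, S4 at 8 to 10 mm and S5 at 10 to 12 mm. By the labels, 3mlpa and 3MWT libraries were taken over from earlier work, so a difference between the pairs and one between sequencing efforts cannot be told apart. Library totals were between 17359192 and 42800413 counts. The labels do not say whether the 3 libraries of a group came from separate plants, so the errors cover the spread between libraries only. Whole seeds hold embryo, endosperm and seed coat, so fewer cells of a type and less RNA per cell cannot be told apart. The summed level of 3 seed storage markers was between 105318 and 201928 CPM (counts scaled to library size, normalized with trimmed means of M values) at S5, against 1.94 to 145 CPM at S1. The summed level of 2 seed coat markers was between 104 and 222 CPM at S5, against 287 to 671 CPM at S1.

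By the closest Arabidopsis gene, the 94 genes comprised 4 of subfamily ABCA, 16 of ABCB, 21 of ABCC, 20 full-size and 29 half-size genes of ABCG, and 4 whose match was no clear ABC transporter. The ABCB subfamily includes auxin transporters, ABCC includes vacuolar pumps for conjugates, half-size ABCG proteins include exporters of cuticular lipids, and full-size ABCG proteins include carriers of abscisic acid and defence compounds. Of the 94, 93 passed the filter on low counts, and Glyma.02G013200 did not. Together they took between 0.0373% and 0.185% of the counts of a library.

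Per length, in the deposited RPKM, the members spread widely. Averaged over the 60 libraries, 54 were below 1 RPKM, 23 between 1 and 5 RPKM and 17 at or above 5 RPKM, with a median of 0.697 RPKM. The highest was Glyma.01G016500, an ABCB2 match, at 40.2 RPKM, followed by Glyma.13G183400 (ABCG9 match) at 31.3 RPKM, Glyma.09G206300 (ABCB2 match) at 20.7 RPKM and Glyma.17G098300 (ATH6 match, subfamily ABCA) at 16.5 RPKM. The ABCG8 matches Glyma.20G163500 and Glyma.10G229800 followed at 15.7 and 15.5 RPKM. Glyma.17G041400 (ABCB11 match) at 11.3 RPKM, Glyma.20G165000 (ABCC10 match) at 11.3 RPKM, Glyma.03G192500 (ABCG34 match) at 9.18 RPKM and Glyma.08G000800 (ABCG5 match) at 8.55 RPKM completed the 10 highest. For comparison, MRP-L and MRP-N averaged 12.7 and 11.8 RPKM, which lay within the range of the 10 highest members. Arabidopsis ABCG9 acts in sterol loading of the pollen coat, ABCG34 exports a defence compound and ABCG5 acts in the cuticle.

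Most members were highest in the smallest seeds. The highest group mean fell at S1 for 56 of 93 members in 3mlpa. The number was 52 for both 3MWT and 1mlpa, it was 49 for 1MWT, and for 38 members it did so in all 4 lines. It fell at S5 in all 4 lines for 5 members. The stage of the highest mean was not counted over all genes, so whether the members differ from them was not tested. Between S5 and S1 a gene was called when its adjusted p in edgeR's quasi-likelihood test, fitted over 40517 genes, was under 0.01 and its log2 fold change was above 1 in size. In 3mlpa 16 members were higher and 43 lower at S5, against 12.9% and 19.3% of all genes. In 3MWT 13 were higher and 28 lower, against 13.3% and 16% of all genes. In 1mlpa 17 were higher and 44 lower, against 13% and 18.8%, and in 1MWT 17 were higher and 41 lower, against 12.6% and 20%. Lower calls thus took a larger share of the members than of all genes in each line, while the share of higher calls lay near that of all genes. Because adjacent stages in the same libraries had chosen the members, these counts describe the list and test nothing about it. The median log2 fold change of S5 over S1 was -1.11, -0.83, -1.38 and -1.25 over the members in 3mlpa, 3MWT, 1mlpa and 1MWT, against -0.05, -0.05, -0.04 and -0.04 over all genes. With members at 0 in a group set at the limit of 3 counts per library, those member medians were -1.09, -0.75, -1.22 and -0.99. The seed coat markers fell over the same interval, and their part in the falls was not tested.

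**Figure D1:**
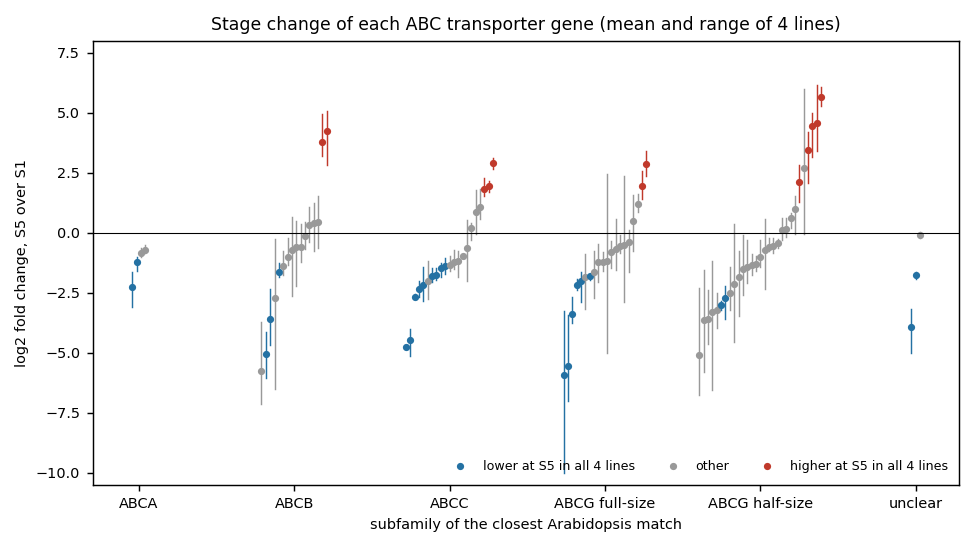
Log2 fold change of S5 over S1 (vertical axis) for each of the 93 tested members, grouped by subfamily of the closest Arabidopsis gene (horizontal axis). Points are means over the 4 lines, vertical lines span the 4 lines, and colour marks the 12 members called higher and the 24 called lower at S5 in all 4 lines. Long lines belong to genes near 0 counts in a group, whose fitted values carry little information.

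In all 4 lines 12 members were called higher at S5, against 8.31% of all genes, and 24 were called lower, against 10.8%. No member was called higher in one line and lower in another. By subfamily, those called the same way in all 4 lines were 0 higher and 2 lower of 4 ABCA genes, 2 and 3 of 16 ABCB, 3 and 9 of 21 ABCC, 2 and 6 of 20 full-size ABCG and 5 and 2 of 29 half-size ABCG. The half-size ABCG genes were the only subfamily in which higher calls outnumbered lower ones on this count. Of its 5 higher genes, 3 were ABCG11 matches. On calls in any line, 7 half-size ABCG genes were higher and 12 lower. Their median of the mean log2 fold change of S5 over S1 in 4 lines was -1.03.

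The largest late rise was found in matches of ABCG11, which in Arabidopsis exports precursors of cutin and wax. Glyma.13G044000 was at 3.98, 5.23 and 12.2 CPM in 3mlpa at S5, against 0.0289, 0.116 and 0.333 CPM at S1, and its log2 fold change was 5.44 ± 0.60 (standard error). In 3MWT it was at 6.94, 8.26 and 11.7 CPM at S5, against 0.0862, 0.491 and 0.121 CPM at S1. In 1mlpa and 1MWT the changes of Glyma.13G044000 were 6.06 ± 0.62 and 5.78 ± 0.63. No S5 library overlapped an S1 library in either 3mlpa or 3MWT. Glyma.08G070700 rose by 3.40 ± 0.68 in 3mlpa and 3.98 ± 0.86 in 3MWT, and in the other pair by 6.15 ± 1.01 in 1mlpa and 4.68 ± 0.94 in 1MWT, and Glyma.13G043000 by 5.01 ± 0.53, 3.15 ± 0.64, 4.85 ± 0.57 and 4.73 ± 0.64 in the same order of lines. The remaining ABCG11 matches, Glyma.13G043800 and Glyma.16G209400, were not called in any line, with mean log2 fold changes of 0.11 and -0.60. Glyma.16G209400 stayed the most abundant of the 5 per length, at 6.45 RPKM, against 1.04 RPKM for Glyma.13G044000.

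Other late rises were seen for single genes of several subfamilies. Glyma.12G135300 (ABCB15 match) was at 1.63, 1.95 and 1.86 CPM in 3mlpa at S5, against 0.0289, 0.0869 and 0.0555 CPM at S1 (log2 fold change 4.88 ± 0.55), and rose by 2.83 ± 0.55 in 3MWT. Glyma.08G270300 (ABCB2 match) rose by 3.19 ± 0.62 in 3mlpa and 3.73 ± 0.72 in 3MWT, and in the other pair by 3.31 ± 0.65 in 1mlpa and 4.93 ± 0.78 in 1MWT. Glyma.06G248800, a match of ABCG9, rose by 3.71 ± 0.43 in 3mlpa and by 4.21 ± 0.44 in 3MWT. In 3mlpa Glyma.06G248800 averaged 0.257, 4.17, 5.25, 3.35 and 3.40 CPM from S1 to S5, so most of its rise lay between S1 and S2. Glyma.12G135300 and Glyma.08G270300 stayed scarce, with highest group means of 1.81 and 2.48 CPM, both in 3mlpa at S5.

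Among the genes called lower at S5 in all 4 lines, the largest falls were found in full-size ABCG, ABCB and ABCC genes. Glyma.03G192700 and its neighbour Glyma.03G192800 are both matches of ABCG39. Glyma.03G192800 was at 0, 0 and 0.0477 CPM in 3mlpa at S5, against 2.52, 3.42 and 2.78 CPM at S1, and at 0.593, 0.574 and 0.338 CPM in 3MWT at S5, against 4.80, 7.63 and 3.96 CPM at S1. Glyma.03G192700 fell by 3.26 ± 0.58 on the log2 scale in 3mlpa, by 4.96 ± 0.59 in 3MWT and by 5.43 ± 0.62 in 1mlpa, and in 1MWT it had no count in the 3 libraries at S5, against 3.05, 4.92 and 6.57 CPM at S1. Glyma.14G220200 (ABCB13 match) fell by 5.36 ± 0.56 in 3mlpa and 4.13 ± 0.55 in 3MWT, and in the other pair by 4.69 ± 0.52 in 1mlpa and 6.07 ± 0.63 in 1MWT. Glyma.05G145000, a match of the vacuolar pump ABCC3, was at 0.326, 0.616 and 2.24 CPM in 3mlpa at S5, against 23.5, 37.8 and 26.0 CPM at S1, and fell by 4.69 ± 0.45, with 4.77 ± 0.44 in 3MWT, 4.82 ± 0.45 in 1mlpa and 4.87 ± 0.47 in 1MWT. Its fall was of like size in the 4 lines, each within 1 standard error of the next. Glyma.07G011400 (ABCC8 match) fell by 4.18 ± 0.82 in 3mlpa and by 4.02 ± 0.75 in 3MWT, and Glyma.03G218800, whose Arabidopsis match is no clear ABC transporter, by 5.03 ± 0.88 in 3mlpa and 4.22 ± 0.96 in 3MWT. At S1 no library held more than 1.23 CPM of Glyma.07G011400 or 0.840 CPM of Glyma.03G218800.

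Genes that share an Arabidopsis match often differed in their stage profile. Of the 93 members, 82 had another member with the same match, which gave 16 pairs of neighbouring genes and 125 pairs lying apart. Over the 20 group means on the scale log2(CPM + 0.5), the median Pearson correlation was 0.54 for neighbours (range -0.68 to 0.97) and 0.09 for the others (range -0.86 to 0.98). These correlations are descriptions, since the points share libraries and stages and since reads of near-identical copies may be split by the counting. In 6 pairs lying apart, and in 0 neighbouring pairs, one gene was called higher and the other lower at S5 in all 4 lines.

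The ABCC4 matches formed such a pair. Arabidopsis ABCC4 acts in the opening of stomata. Glyma.15G148500 was at 35.9, 37.4 and 54.4 CPM in 3mlpa at S5, against 10.3, 7.30 and 8.88 CPM at S1 (log2 fold change 2.27 ± 0.19), and Glyma.10G019000 was at 11.5, 13.8 and 25.0 CPM at S5, against 58.7, 54.3 and 67.1 CPM at S1 (-1.83 ± 0.22). In 3MWT Glyma.15G148500 rose by 1.54 ± 0.19 and Glyma.10G019000 fell by 1.44 ± 0.22. Over the 20 groups their profiles had a correlation of -0.82. Per length, Glyma.15G148500 averaged 5.97 RPKM in 3mlpa at S5, against 2.32 RPKM at S1, and Glyma.10G019000 averaged 1.83 RPKM at S5, against 12.3 RPKM at S1, so the order of the copies was reversed between the stages. RPKM lack the scaling used for CPM, so they are read between the copies within a stage and not as the size of a change.

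**Figure D2:**
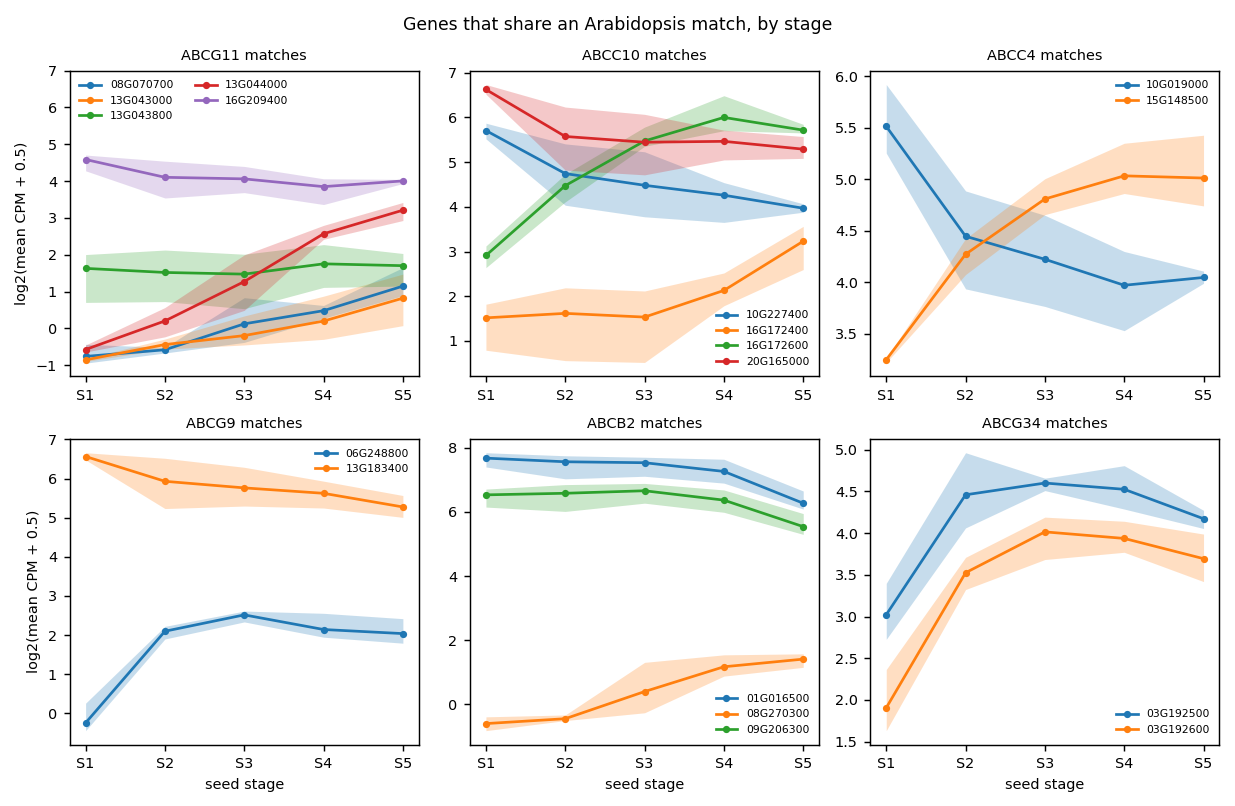
Log2(mean CPM + 0.5) by seed stage (horizontal axis, S1 to S5) for genes that share an Arabidopsis match, with 1 colour per gene and the Glyma prefix left out. Lines are means over the 4 lines and bands span them; the ABCC4, ABCC10, ABCG9 and ABCB2 panels each hold genes whose mean rises beside genes whose mean falls.

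Among the ABCC10 matches, Glyma.16G172600 and its neighbour Glyma.16G172400 rose and Glyma.10G227400 fell in all 4 lines. Glyma.16G172600 was at 60.0, 59.4 and 51.7 CPM in 3mlpa at S5, against 7.06, 6.35 and 6.72 CPM at S1 (3.09 ± 0.23), and at 42.2, 53.0 and 59.5 CPM in 3MWT at S5, against 6.78, 9.60 and 8.28 CPM at S1 (2.65 ± 0.23). Glyma.10G227400 fell by 1.71 ± 0.26 in 3mlpa and 1.48 ± 0.26 in 3MWT, and its profile had a correlation of -0.84 with that of Glyma.16G172600. Glyma.20G165000, the most abundant ABCC10 match per length at S1, fell by 1.37 ± 0.26 in 3mlpa and was not called in 3MWT. ABCG9 and ABCB2 matches showed the same contrast of a scarce rising gene (Glyma.06G248800, Glyma.08G270300) beside abundant falling ones. Glyma.13G183400, the abundant ABCG9 match, was at 38.2 ± 3.41 CPM in 3mlpa at S5, against 88.6 ± 13.2 CPM at S1 (SD, n = 3 each), and Glyma.01G016500, the abundant ABCB2 match, at 73.2 ± 12.0 CPM, against 207 ± 15.4 CPM. In 3MWT neither of these was called, at -0.97 ± 0.25 for Glyma.13G183400 and -0.75 ± 0.21 for Glyma.01G016500. Among the neighbours, the ABCG34 matches Glyma.03G192500 and Glyma.03G192600, which lie beside the falling ABCG39 matches, had profiles with a correlation of 0.91. Glyma.03G192600 rose in all 4 lines, whereas Glyma.03G192500 was called in 3mlpa (1.62 ± 0.32) and 1mlpa (1.49 ± 0.32) and was at 0.84 ± 0.31 in 3MWT and 0.87 ± 0.31 in 1MWT. MRP-L and MRP-N, the genes mutated in 3mlpa, were also higher at S5, at 138 and 120.2 CPM in 3mlpa, against 56.1 and 38.0 CPM at S1.

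The comparison of 3mlpa with 3MWT asks which genes differ between the triple mutant and its sister line. As recombinant inbred sisters they also differ in parental sequence elsewhere, so that and an effect of the mutations cannot be told apart. At S1 17 members were higher and 4 lower in 3mlpa, against 4.59% and 1.62% of all genes. At S2 the counts were 13 and 3, against 3.38% and 1.34%, and at S3 they were 9 and 3, against 3.22% and 1.3%. At S4 1 member was higher and 1 lower, against 1.07% and 1.3%, and at S5 2 and 2, against 1.69% and 2.58%. At any stage 31 of 93 members were called (33.3%), against 13.2% of all genes. These comparisons were among those that had selected the members, so the counts describe the list and test nothing about it. The 31 comprised 25 members that were higher at a stage and 6 that were lower, and none was called both ways. The medians of the members were 0.04, 0.37, 0.32, 0.17 and 0.02 on the log2 scale from S1 to S5, against values between -0.03 and 0.01 over all genes. At S1 replicate 2 of 3MWT stood apart from the other libraries of its group for several members, as for Glyma.17G041400 with 57.1 CPM beside 18.2 and 14.0 CPM, and 23 members were called without it. The count at S1 was 10 when 3mlpa replicate 3 or 3MWT replicate 1 was left out, 6 when 3MWT replicate 3 was, and 4 when the 6 libraries were fitted alone. The count at S3 fell to 4 when 3mlpa replicate 2 was left out, to 7 and 6 when 3MWT replicate 2 or 3 was, and to 3 when fitted alone. At S4 replicate 3 of 3mlpa stood apart, with 735 CPM summed over the members beside 1042 and 1109 CPM, and 2 members were called without it. The 2 calls at S4 became 1 when either 3mlpa replicate 2 or 3MWT replicate 3 was left out, and at S5 the 4 calls became 2 when fitted alone.

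Storage marker levels differed between these lines at the same seed length. At S1, the stage with the most members called, the ranges did not overlap, with a sum between 1.94 and 29.6 CPM in 3mlpa, against 51.8 to 145 CPM in 3MWT. The sum was between 394 and 954 CPM in 3mlpa at S2, against 799 to 6269 CPM in 3MWT, and between 5609 and 33569 CPM in 3mlpa at S3, against 24095 to 56077 CPM in 3MWT, with overlapping ranges at both stages. Seed coat markers summed to between 441 and 526 CPM in 3mlpa at S2, against 270.1 to 356 CPM in 3MWT. Their ranges overlapped at S1, with 398 to 471 CPM in 3mlpa and 287 to 521 CPM in 3MWT, and at S3, with 362 to 514 CPM in 3mlpa and 370 to 571 CPM in 3MWT. None of these markers was at 0 in any library. The part of these differences in the results below was not tested. The summed CPM of the members was 1060, 1181 and 1149 CPM in 3mlpa at S2, against 864, 830.2 and 761 CPM in 3MWT. The 3 libraries of 3mlpa lay above those of 3MWT both at S2 and at S3, where the sums were 1058, 1094 and 1022 CPM in 3mlpa, against 834, 782 and 808 CPM in 3MWT.

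**Figure D3:**
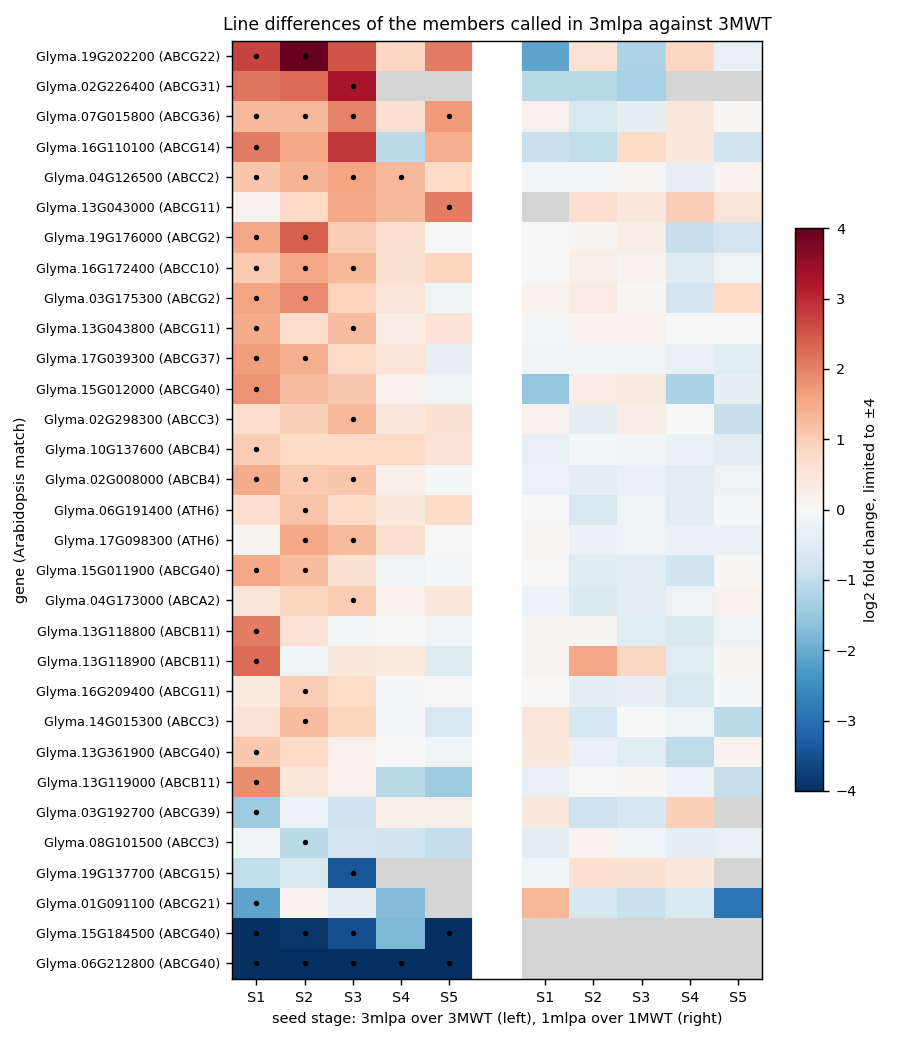
Log2 fold change by seed stage for the 31 members called in 3mlpa against 3MWT at any stage, for 3mlpa over 3MWT (left block) and 1mlpa over 1MWT (right block), with the Arabidopsis match in parentheses. Colours are limited at 4 in either direction, dots mark calls, and grey cells had at most 3 counts in each of the 6 libraries; all dots lie in the left block.

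The clearest difference was that of Glyma.06G212800, a match of ABCG40, which imports abscisic acid in Arabidopsis. It was called lower in 3mlpa at all 5 stages. In 3MWT it was at 5.37, 7.44 and 3.84 CPM at S1, 4.84, 5.29 and 3.53 CPM at S2, 3.59, 3.71 and 3.55 CPM at S3, 4.98, 5.94 and 3.75 CPM at S4 and 4.75, 5.16 and 7.82 CPM at S5, whereas 14 of the 15 libraries of 3mlpa held no count and the other held 1. It was at least 64.8-fold lower in 3mlpa at S1, 61.5-fold at S2, 34.3-fold at S3 and 36.0-fold at S5, with 3mlpa set at 3 counts per library, and at S4 it had 1 count in 3mlpa, against 275 in 3MWT. The gene was also near 0 in both lines of the other pair. Over the 45 libraries of 3mlpa, 1mlpa and 1MWT together Glyma.06G212800 had 3 counts, in 3 libraries, against 1775 counts in the 15 libraries of 3MWT. The line that stood apart was therefore the non-mutant 3MWT. A second ABCG40 match, Glyma.15G184500, followed the same pattern at a lower level. It had 123 counts in 3MWT, at between 0.0808 and 0.574 CPM, against 23 counts in the other 45 libraries. In 3MWT its counts were 6.93% of those of Glyma.06G212800, and between 2.11% and 11.9% in single libraries. Over the 20 group means the profiles of both genes had a correlation of 0.98. Reads of near-identical copies may have been split between them, so their values are not independent. Both were the members with the shortest counted lengths, at 186 bases for Glyma.06G212800 and 453 bases for Glyma.15G184500, as computed from the deposited counts and RPKM. The median counted length of the 20 full-size ABCG members was 4658 bases, so neither gene model covers a full transporter.

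The other pair of lines was used to describe which of 3mlpa and 3MWT stood apart at a call. As near-isogenic sisters, 1mlpa and 1MWT are not independent references. By the paper, the crosses of both pairs shared a parent. Shared parental sequence and an effect of the mutations therefore cannot be told apart in these positions. At each call the levels in 1mlpa and 1MWT were compared with those in 3mlpa and 3MWT on the log2 CPM scale. Of the 42 calls of members as higher, summed over stages, both 1M lines lay nearer 3mlpa in 23, nearer 3MWT in 12, and were split in 7. Over all genes called higher, the shares were 47.7%, 29.9% and 22.4%, so the members lay near the background. Of the 13 calls as lower, 9 of which came from the 2 ABCG40 matches above, 10 lay nearer 3mlpa, against 63.9% over all genes called lower. By stage, 6 of 17 calls as higher lay nearer 3mlpa at S1 and 8 nearer 3MWT, while 8 of 13 at S2 and 7 of 9 at S3 lay nearer 3mlpa. Over all genes called higher, 38.4% at S1, 49.5% at S2 and 52.4% at S3 lay nearer 3mlpa, and 30.6% at S1 lay nearer 3MWT, so all genes showed a shift of the same direction. The 2 pairs were sequenced in separate efforts, so levels set across them may differ for that reason too. Storage marker sums at the same seed length also differed among the lines. At S3 they were between 3573 and 34777 CPM in 1mlpa and between 2328 and 2670 CPM in 1MWT, against 24095 to 56077 CPM in 3MWT. At S1 they were between 2.76 and 7.68 CPM in 1mlpa and between 66.3 and 90.6 CPM in 1MWT. The part of these differences in the positions was not tested. Of the 93 members, 33, 38, 44, 26 and 24 had their lowest group mean in 3MWT from S1 to S5, against 32.3%, 32.9%, 34.2%, 30.3% and 32.8% of all genes.

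**Figure D4:**
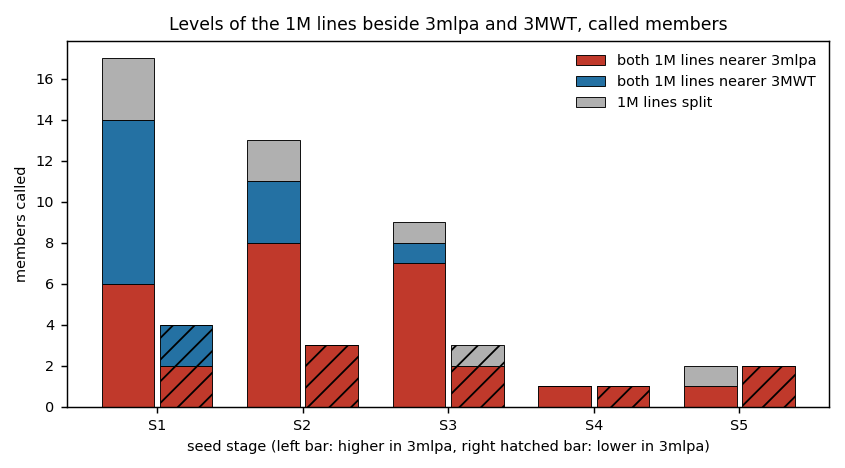
Number of members called in 3mlpa against 3MWT (vertical axis) by seed stage (horizontal axis), as higher (plain bars) or lower (hatched bars), with colour for the position of both lines of the other pair. Of the calls as higher, 8 of 17 at S1 lay nearer 3MWT (30.6% over all genes), and 8 of 13 at S2 and 7 of 9 at S3 lay nearer 3mlpa (49.5% and 52.4% over all genes).

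Glyma.04G126500, a match of the vacuolar pump ABCC2, and Glyma.07G015800 were called higher in 3mlpa at 4 stages each, more than any other member. Glyma.04G126500 was at 17.3, 17.02 and 15.3 CPM in 3mlpa at S2, against 7.24, 7.37 and 5.03 CPM in 3MWT (log2 fold change 1.35 ± 0.25), and at 8.84, 11.3 and 10.1 CPM in 3mlpa at S3, against 2.90, 4.11 and 3.04 CPM in 3MWT (1.58 ± 0.27). At S1 and S4 the differences were 1.1 ± 0.25 and 1.30 ± 0.29. In the other pair Glyma.04G126500 was at 14.2, 9.69 and 10.9 CPM in 1mlpa at S3, against 14.2, 8.07 and 11.5 CPM in 1MWT, both like 3mlpa. Glyma.02G008000, a match of the auxin transporter ABCB4, was at 16.4, 13.5 and 16.0 CPM in 3mlpa at S1, against 5.72, 5.29 and 5.21 CPM in 3MWT (1.5 ± 0.16), and at 14.1, 15.1 and 14.3 CPM in 1mlpa, against 16.2, 15.7 and 19.98 CPM in 1MWT. It was also called at S2 (1.06 ± 0.16) and S3 (1.11 ± 0.17), and only the libraries of 3MWT stood apart at S1. Glyma.16G172400, the rising ABCC10 match, was higher by 1.06 ± 0.29 at S1, 1.55 ± 0.29 at S2 and 1.31 ± 0.31 at S3, with both 1M lines nearer 3mlpa each time.

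The ATH6 matches differed at S2 and S3. Glyma.17G098300 was at 66.2, 71.3 and 53.7 CPM in 3mlpa at S2, against 24.3, 24.8 and 17.8 CPM in 3MWT (1.52 ± 0.23), and at 51.6, 49.8 and 50.3 CPM in 3mlpa at S3, against 19.5, 20.4 and 23.0 CPM in 3MWT (1.27 ± 0.23). At S1 the lines overlapped, with 66.1, 81.3 and 67.9 CPM in 3mlpa and 91.2, 51.6 and 57.1 CPM in 3MWT. The lower level of 3MWT thus appeared between S1 and S2. Glyma.06G191400 was called at S2, at 16.2, 18.4 and 17.7 CPM in 3mlpa, against 8.97, 7.33 and 7.23 CPM in 3MWT (1.16 ± 0.19). The ABCG2 matches, which act in suberin barriers in Arabidopsis, moved together. Glyma.03G175300 was at 8.47, 7.67 and 9.05 CPM in 3mlpa at S2, against 1.65, 3.19 and 1.90 CPM in 3MWT (1.90 ± 0.29), and Glyma.19G176000 at 2.18, 1.76 and 1.96 CPM, against 0.263, 0.407 and 0.423 CPM (2.39 ± 0.41). Both were also called at S1. For both genes, both 1M lines lay nearer 3mlpa at S1 and S2. By gene number, Glyma.03G175300 lies on the chromosome of MRP-N (Glyma.03G167800) and Glyma.19G176000 on that of MRP-L (Glyma.19G169000). Among the other members on these chromosomes, Glyma.03G192700, Glyma.19G137700 and Glyma.19G202200 were called between 3mlpa and 3MWT at a stage. The rest were not, including Glyma.19G169300, the closest to MRP-L by gene number. The part of linked parental sequence was not tested. Glyma.13G043800, one of the ABCG11 matches without a stage change, was higher in 3mlpa by 1.47 ± 0.32 at S1 and 1.24 ± 0.34 at S3.

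**Figure D5:**
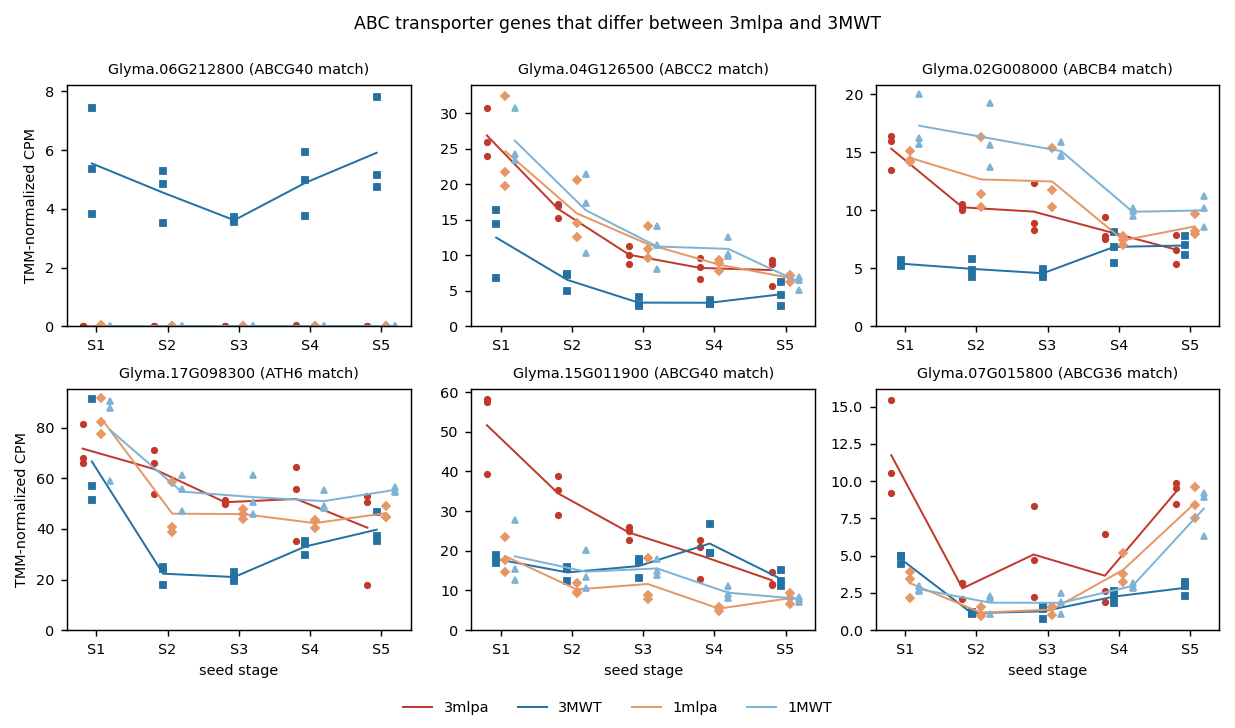
Normalized CPM (vertical axes, from 0) by seed stage (horizontal axes) for 6 members, with points for single libraries and lines for means of 3. Glyma.06G212800 is at or above 3.53 CPM in every library of 3MWT and has at most 1 count in those of the other lines, 3MWT lies below the other lines for Glyma.04G126500, Glyma.02G008000 and Glyma.17G098300 at S2 and S3, and 3mlpa lies above the other lines for Glyma.15G011900 and Glyma.07G015800 at S1.

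In another group, centred on S1, the line that stood apart was 3mlpa. Glyma.15G011900, an abundant ABCG40 match, was at 58.1, 39.3 and 57.5 CPM in 3mlpa at S1, against 17.8, 19.0 and 16.9 CPM in 3MWT (1.53 ± 0.24), and at 17.7, 14.6 and 23.5 CPM in 1mlpa, against 12.7, 15.4 and 27.7 CPM in 1MWT. No library of 3mlpa overlapped those of the other 3 lines. It was also called at S2 (1.25 ± 0.24), and at S4 and S5 its libraries in 3mlpa and 3MWT overlapped. Glyma.07G015800 matches ABCG36 (PEN3), which acts in defence against pathogens in Arabidopsis. It was at 10.6, 9.21 and 15.5 CPM in 3mlpa at S1, against 4.45, 4.95 and 4.97 CPM in 3MWT (1.29 ± 0.32), and at 3.94, 2.13 and 3.40 CPM in 1mlpa, against 2.68, 2.60 and 2.99 CPM in 1MWT. At S5 the position was different, with Glyma.07G015800 at 9.53, 8.47 and 9.87 CPM in 3mlpa, against 2.97, 2.30 and 3.26 CPM in 3MWT (1.71 ± 0.35), and at 9.58, 8.41 and 7.51 CPM in 1mlpa, against 8.91, 6.33 and 9.24 CPM in 1MWT. At S5 the line that stood apart was thus 3MWT. The change of S5 over S1 was called in 1mlpa (1.43 ± 0.33) and 1MWT (1.57 ± 0.34), and was -0.34 ± 0.32 in 3mlpa and -0.75 ± 0.35 in 3MWT. Glyma.17G039300, a match of ABCG37, which exports auxin precursors, was at 5.96, 7.10 and 10.6 CPM in 3mlpa at S1, against 1.75, 4.08 and 1.70 CPM in 3MWT (1.66 ± 0.26), with both 1M lines nearer 3MWT. It was also called at S2 (1.45 ± 0.27), where both 1M lines lay nearer 3mlpa.

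The 3 neighbouring ABCB11 matches on chromosome 13 were called at S1 alone. Glyma.13G119000 was at 2.29, 1.42 and 2.33 CPM in 3mlpa, against 0.460, 0.907 and 0.283 CPM in 3MWT (1.87 ± 0.43), and Glyma.13G118800 was higher by 2.04 ± 0.44 and Glyma.13G118900 by 2.24 ± 0.64. Both 1M lines lay nearer 3MWT for all 3 genes. Reads of near-identical neighbours may have been split between them, so the 3 values are not independent. Glyma.03G192700, the falling ABCG39 match, was lower in 3mlpa at S1 (-1.43 ± 0.41), and there too the 1M lines lay nearer 3MWT.

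Calls in 3mlpa against 3MWT at any stage were counted by role of the Arabidopsis match. They are read beside 33.3% of the tested members and 13.2% of all genes. The calls were 4 higher and 2 lower of 11 members listed for abscisic acid transport, and 3 higher of 4 for auxin transport. For cutin and suberin 5 of 8 were higher, for defence 1 of 6 and for cytokinin 1 of 2. For vacuolar conjugates 4 were higher and 1 lower of 16. That list also holds the ABCC4 matches, whose Arabidopsis protein lies in the plasma membrane. These comparisons were among those that had selected the members, so the counts describe the lists and test nothing about a role. No member matched the lists for lipid transport to organelles or for mitochondrial transporters. The abscisic acid list held Glyma.14G127800 (ABCG40 match) and Glyma.14G193300 (ABCG31 match), neither called between the lines, which fell between S5 and S1 by 1.94 ± 0.28 and 1.71 ± 0.27 on the log2 scale in 3mlpa. In the same list Glyma.06G071800 (ABCG40 match) rose by 2.46 ± 0.40 in 3mlpa and 2.36 ± 0.39 in 3MWT. Auxin carriers Glyma.10G137600 and Glyma.17G041300, both ABCB4 matches, averaged 0.754 and 0.0424 RPKM, and Glyma.10G137600 was called at S1 (1.02 ± 0.23). The cytokinin list, with matches of ABCG14, which moves cytokinin from root to shoot in Arabidopsis, held only scarce genes, Glyma.01G154400 at 0.259 RPKM and Glyma.16G110100 at 0.112 RPKM. In the defence list Glyma.08G201300 (ABCG36 match) averaged 1.58 RPKM and was not called in any comparison, and Glyma.03G192600 rose by 2.55 ± 0.36 in 3mlpa and 1.89 ± 0.36 in 3MWT between S5 and S1. Glyma.08G140900, whose match ATH13 is an ABC1-type protein rather than a transporter, averaged 5.19 RPKM and was not called between the lines or between S5 and S1.

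Between the near-isogenic 1mlpa and 1MWT, which carry and lack mips1, 0 of 93 members were called at any stage, against 0.365% of all genes. At an unadjusted p under 0.05 in edgeR's test the members numbered 9, 19, 15, 22 and 9 from S1 to S5, and all genes numbered 4285, 5070, 3774, 5790 and 1290 of 40517. DESeq2 called 1 member, and 5 were called in a fit, added after seeing the data, that left out the libraries whose column names carry a suffix. Those 3 libraries are 1mlpa S2 replicate 1, 1MWT S2 replicate 3 and 1MWT S3 replicate 2. Without 1mlpa S2 replicate 1 alone the count was 1. The medians of the members were 0.09, -0.20, -0.10, -0.33 and 0.06 on the log2 scale from S1 to S5. At S4 41 members had their lowest group mean in 1mlpa and 43 their highest in 1MWT, against 26.1% and 21.9% of all genes, and the storage markers summed to between 90596 and 102297 CPM in 1mlpa at that stage, against 40327 to 56253 CPM in 1MWT. The storage ranges of this pair also lay apart at S1, where 1mlpa was lower, and at S3, where 1mlpa was higher. They overlapped at S2 and S5.

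The difference between the effects of the pairs was called for 32 of 93 members at any stage, against 13.9% of all genes. This difference contains the 3mlpa and 3MWT libraries that had selected many members.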

How the data were processed

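Whole-seed RNA of 4 soybean lines at 5 stages was sequenced by the authors as single-end reads of 100 bases. The deposited counts give, as whole numbers, the reads that the authors assigned to each gene, and the submitters' notes name STAR 2.4.2, featureCounts 1.4.6, DESeq2 1.8.2 and R 3.2.4. The deposited RPKM were divided by the authors by gene length and library size, so they lack the TMM scaling. They were used for levels between genes, including the ABCC4 copies at S1 and S5, and for counted length. Counted length is the length in bases implied by the counts, the RPKM and the library total. The authors' annotation columns, deposited with their tables of fold changes and adjusted p-values, served to find the members; their fold changes and p-values were not used.

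Counts of all 60 libraries were filtered (filterByExpr), normalized with TMM and fitted by group with edgeR 4.0.16 (quasi-likelihood test, Benjamini-Hochberg adjustment over 40517 genes) in R 4.3.3. The fit had 40 residual degrees of freedom, and it was tested on simulated data. Called means adjusted p under 0.01 and absolute log2 fold change above 1. Levels are CPM on TMM library sizes. Library totals before TMM had a minimum of 17359192 and a median of 25314824 counts. The limit for a library at 0 was 3 counts, which covers counting error only. Alternatives were DESeq2 1.42.0, its size factors, no filter, the compared libraries alone, a replicate block and leaving out each library, where the dispersion trend of all libraries was kept. Replicate numbers were not taken as pairs: in 0 of 14 comparisons did all same-numbered libraries deviate together at a correlation above 0.1. No libraries of a group agreed within sampling noise.

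The members, roles (abscisic acid, auxin, defence, cutin and suberin, vacuolar conjugates, lipids to organelles, cytokinin, mitochondria) and markers were chosen with earlier results of these data known. Genes were named by rule: the 12 called in 3mlpa against 3MWT at most stages, any called in 1mlpa, the 10 highest in RPKM and the highest of each subfamily, the 6 largest rises and falls shared by 4 lines, the 6 smallest adjusted p for the difference of the pairs, and up to 4 per role. The 12 were taken among members with an average log2 CPM above 0. That left out Glyma.15G184500, called at 4 stages, and Glyma.19G176000 and Glyma.19G202200, called at 2 stages each. Other genes named were chosen after their values were seen. They are neighbours, copies with the same match and members on the chromosomes of MRP-L and MRP-N.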

Additional observations from a re-analysis of the deposited data

Results flagged for a closer look

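The effect of the mutant line differed between the pairs (3mlpa over 3MWT minus 1mlpa over 1MWT) for 32 members at any stage in the fit across all genes. The 6 members with the smallest adjusted p are given with both effects, as log2 fold changes with standard errors. For Glyma.02G008000 (ABCB4 match) at S1 the difference was 1.75 ± 0.22, with 1.5 ± 0.16 in 3mlpa over 3MWT and -0.25 ± 0.15 in 1mlpa over 1MWT. For Glyma.06G191400 and Glyma.17G098300 (ATH6 matches) at S2 it was 1.79 ± 0.26 and 1.77 ± 0.32, with effects of 1.16 ± 0.19 and 1.52 ± 0.23 in 3mlpa over 3MWT and of -0.64 ± 0.18 and -0.25 ± 0.22 in 1mlpa over 1MWT. For Glyma.04G173000 (ABCA2 match) at S2 it was 1.42 ± 0.21, with 0.85 ± 0.15 in 3mlpa over 3MWT and -0.57 ± 0.15 in 1mlpa over 1MWT. For Glyma.10G227400 (ABCC10 match) at S2 it was 1.88 ± 0.35, with 0.98 ± 0.25 in 3mlpa over 3MWT and -0.89 ± 0.25 in 1mlpa over 1MWT. For Glyma.15G012000 (ABCG40 match) at S1 it was 3.34 ± 0.66, with 1.79 ± 0.47 in 3mlpa over 3MWT and -1.55 ± 0.46 in 1mlpa over 1MWT. That gene was scarce, at 0.463, 0.695 and 0.583 CPM in 3mlpa, against 0.115, 0.189 and 0.202 CPM in 3MWT. The pairs differ in mutations (mips1, mrp-l and mrp-n in 3mlpa, mips1 alone in 1mlpa), in crosses and in sequencing effort. They also differ in how alike the sister lines are, recombinant inbred for 3mlpa and 3MWT and near-isogenic for 1mlpa and 1MWT. These differences cannot be told apart.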

How the results depend on the processing

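Directions of single named genes were kept in every alternative run, and 185 of 185 of their calls under DESeq2 size factors and under the replicate block, 183 under DESeq2 and 182 without a filter were kept. With the compared libraries alone 35 of 180 lost the threshold, and leaving out a library did so in 166 of 1302. The counts of members called in 3mlpa against 3MWT were 4 at S1, 3 at S3 and 2 at S5 with the compared libraries alone. In 1mlpa against 1MWT at any stage the count was 1 with DESeq2, 1 with the compared libraries alone and 5 without the 3 libraries with a suffix, a setting chosen after seeing the data. Leaving out 1 library gave 6 to 23 calls at S1, 11 to 18 at S2, 4 to 17 at S3, 1 to 2 at S4 and 4 to 5 at S5 in 3mlpa against 3MWT, and 0 to 1 in 1mlpa against 1MWT. It gave 56 to 61 for S5 against S1 in 3mlpa, 39 to 47 in 3MWT, 58 to 63 in 1mlpa and 54 to 59 in 1MWT, 35 to 37 for all 4 lines and 26 to 37 for the difference of the pairs. The cause was not tested. Of the 94 members, 54 averaged below 1 RPKM, and whether lost calls fell among them was not tested.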
